A study of Mactra quadrangularis with 9 samples.

Results

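The baseline messenger RNA population of normoxic clam gill is described here from the 3 control libraries, out of 9 libraries in the study, and over all 24722 genes of the deposited table. The members were chosen by their label alone: every library kept at 7.5 mg/L dissolved oxygen, and no library kept at lower oxygen. The tissue was gill, labelled branchiae, of the surf clam Mactra quadrangularis (Mactra veneriformis in the series text). Control clams were held for 24 h in aerated water at 7.5 mg/L oxygen (within 0.2 mg/L). The water was at 20 °C with a salinity of 27, each parallel held 40 clams, and the clams were not fed and the water not changed. The study's other 2 groups, kept at 4 and 2 mg/L, were not used. The labels do not say how many clams went into a library, nor whether the libraries came from separate clams, so a spread between them may be partly technical. With 1 group there is no contrast between conditions. Levels are therefore described with their SD over 3 libraries, and 2 genes are said to overlap when the ranges of their 3 values do.

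The bivalve gill is both a respiratory surface and a filter. Sheets of ciliated filaments drive water over the tissue, mucus carries the trapped particles, and the thin epithelium exchanges oxygen, ammonia and ions with the water that passes. Haemocytes, the blood cells, circulate through the filaments, and the tissue meets microbes continuously, for which bivalves carry large families of lectins and other recognition proteins but no antibodies.

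Levels are in FPKM, fragment counts scaled for gene length and for the mapped total, which allows genes of different length to be compared within a library. The 3 libraries held 26994566, 31962737 and 32246147 counts. Each gave at least 1 count to between 20316 and 20624 genes, and 18856 genes had a count in all 3. Across the 13730 genes that reached 1 FPKM in every library, log2 FPKM of any 2 libraries correlated at a Pearson r of 0.988 to 0.989, which is a description across genes and not a test. A chi-square statistic on the counts averaged 5.68 to 6.62 per gene for the 3 pairs of libraries, and no libraries were merged. Were each count 1 independent fragment, sampling alone would give about 1 per gene. Counts here are not independent, as described below, so the excess cannot be read as spread between libraries alone.

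A gene counts as detected here when it reached 1 FPKM in every library. By that rule 13730 genes, 55.5% of the table, were detected, 8543 had counts but stayed below the limit, and 2449, or 9.91%, had 0 counts in all 3 libraries. For those last genes the data allow up to 3 counts in the 91203450 counts summed over the libraries, or 0.0329 CPM, counts scaled to the library total. At the median gene length implied by the table, 1779 bases, this corresponds to 0.0185 FPKM. Genes just inside the limit included a cytochrome c oxidase copper chaperone (Mve05G015540), at 1.30 ± 0.371 FPKM. Just outside it lay a kainate-type glutamate receptor (Mve16G001090), with 0.999, 1.05 and 1.02 FPKM. The limit thus separates genes whose levels overlap, and it is a convention of reading rather than a boundary between expressed and silent genes.

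The distribution of messenger RNA over genes was steep. The 10 most abundant genes held 15.0 ± 0.119% of summed FPKM (SD, n = 3), the 100 most abundant held 45.8 ± 0.397%, and 1000 genes held 76.5 ± 0.301%. In the mean profile 128 genes made up 50% of the sum and 3718 genes made up 90%. At the top, 102 genes of at least 1000 FPKM carried 46.1 ± 0.399% of the sum. Another 568 genes between 100 and 1000 FPKM carried 25.9 ± 0.0429%, 4531 genes between 10 and 100 FPKM carried 21.1 ± 0.272%, and the 9383 genes between 1 and 10 FPKM carried 6.55 ± 0.0841%. Genes with some counts but under 1 FPKM in the mean numbered 5295 above 0.1 FPKM and 2394 below it, and together they added less than the polyubiquitin gene described below. The typical detected gene was modest: the median over the 13730 detected genes was 6.86 FPKM, with quartiles of 3.18 and 16.4 FPKM.

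**Figure D1:**
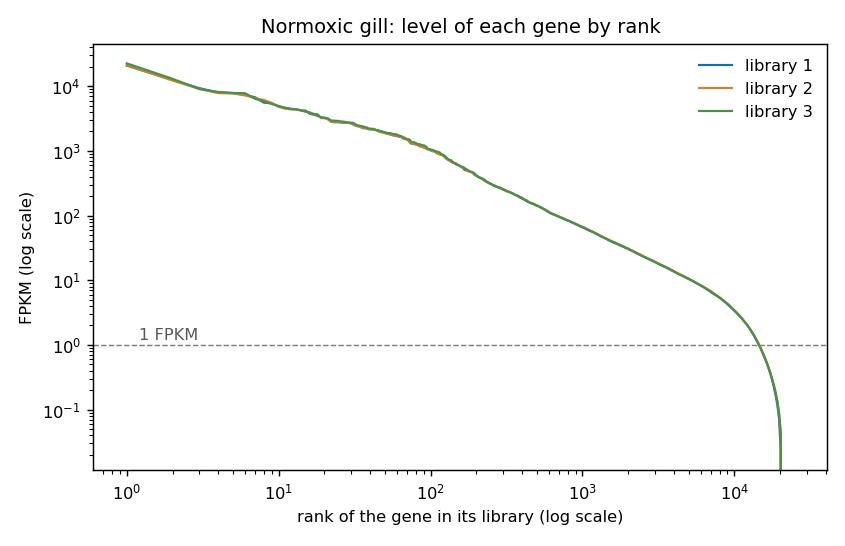
FPKM of every gene against its rank within each of the 3 normoxic libraries, both axes on log scales, with a dashed line at 1 FPKM. The 3 curves lie almost on each other from the first gene, at a mean of 21484 FPKM, down to the limit of detection.

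Gene length and annotation changed along this range. The median implied length was 873 bases among genes of at least 1000 FPKM and 1907 bases among genes of 1 to 10 FPKM. Of the 102 genes at the top, 75 carried a description that names a protein, 13 carried an uninformative one such as "hypothetical protein", and 14 carried none. Over the whole table the 13677 genes with an informative description were detected in 64.4% of cases and held 69.0 ± 0.0953% of summed FPKM. The 3912 genes with no description were detected in 41.9% of cases and were at 0 in 17.4%, yet they held 17.1 ± 0.131% of the sum. Of the 13 uninformative genes at the top, 7 carried gene ontology terms for the ribosome or translation, among them Mve16G004400, annotated to the large ribosomal subunit, with 2704, 2798 and 2967 FPKM.

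The most abundant gene of normoxic gill, Mve14G002560, has no description. It lies on the minus strand of chromosome 14 at 8542446 to 8546815, in the coordinates of the deposited table (the build is not named in the sources used here). It had 20804, 21120 and 22529 FPKM in the 3 libraries, a mean of 21484 ± 918 FPKM, and alone made up 3.63% of summed FPKM. In each library it stood above every other gene, and its range did not overlap that of the second gene. Its implied length was short, 488 bases, and by counts it ranked lower, behind elongation factors 1 alpha and 2, a tubulin of each kind, beta-actin and polyubiquitin-C.

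Mve14G002560 was the first of 5 neighbouring genes on chromosome 14, all without a description and all above 1000 FPKM in the mean. Mve14G002570 had 5455, 6116 and 5304 FPKM, Mve14G002590 had 2544, 2573 and 2574 FPKM, and Mve14G002600 had 2161, 1584 and 2195 FPKM. Mve14G002580 was the lowest of them, with 1236, 1132 and 1403 FPKM. The 5 genes span 94691 bases from 8542446 to 8637136 and had implied lengths of 488 to 1198 bases. Together they held 32910 ± 961 FPKM, or 5.56 ± 0.109% of the sum. No other run of 3 or more neighbouring genes reached 1000 FPKM throughout, while 6 runs, this one included, reached 100 FPKM.

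The genes that flank this run were low or at 0. On one side Mve14G002550, without a description, had 0 counts in every library, and Mve14G002530, an nmrA-like family protein, averaged 17.8 ± 1.32 FPKM. On the other side a gene described as a 70 kDa neurofilament protein (Mve14G002610) averaged 20.4 ± 0.997 FPKM and a filament-like protein (Mve14G002620) was at 0. Within the run the library order was not shared: library 2 was the highest for Mve14G002570 and the lowest for Mve14G002600, whose SD was 17.4% of its mean. Copies of one sequence can share reads, and these 5 genes carry no annotation that would tell whether they are copies, so their individual levels are uncertain.

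Of the 30 genes of highest mean FPKM, 24 had an informative description, 5 had none and 1 had an uninformative one. These 30 held 26.4 ± 0.119% of summed FPKM. Their order was only partly resolved: of the 29 pairs of neighbours in it, 15 overlapped in their 3-library ranges. The spread within a gene was small throughout, with an SD of 0.171% to 7.68% of the mean. Besides the chromosome 14 genes, 3 of the 30 had no description: Mve01G020700, with 7368, 7191 and 8138 FPKM, Mve01G009840, with 5559, 5523 and 5805 FPKM, and Mve03G012070, with 4203, 4073 and 4053 FPKM. Their implied lengths were 242, 872 and 184 bases, and by counts they ranked 72, 14 and 207. The high FPKM of Mve01G020700 and Mve03G012070 thus rest in part on a very short length. The last gene of the 30, described as protein PLANT CADMIUM RESISTANCE 3-like (Mve12G011990), averaged 2702 ± 42.7 FPKM.

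**Figure D2:**
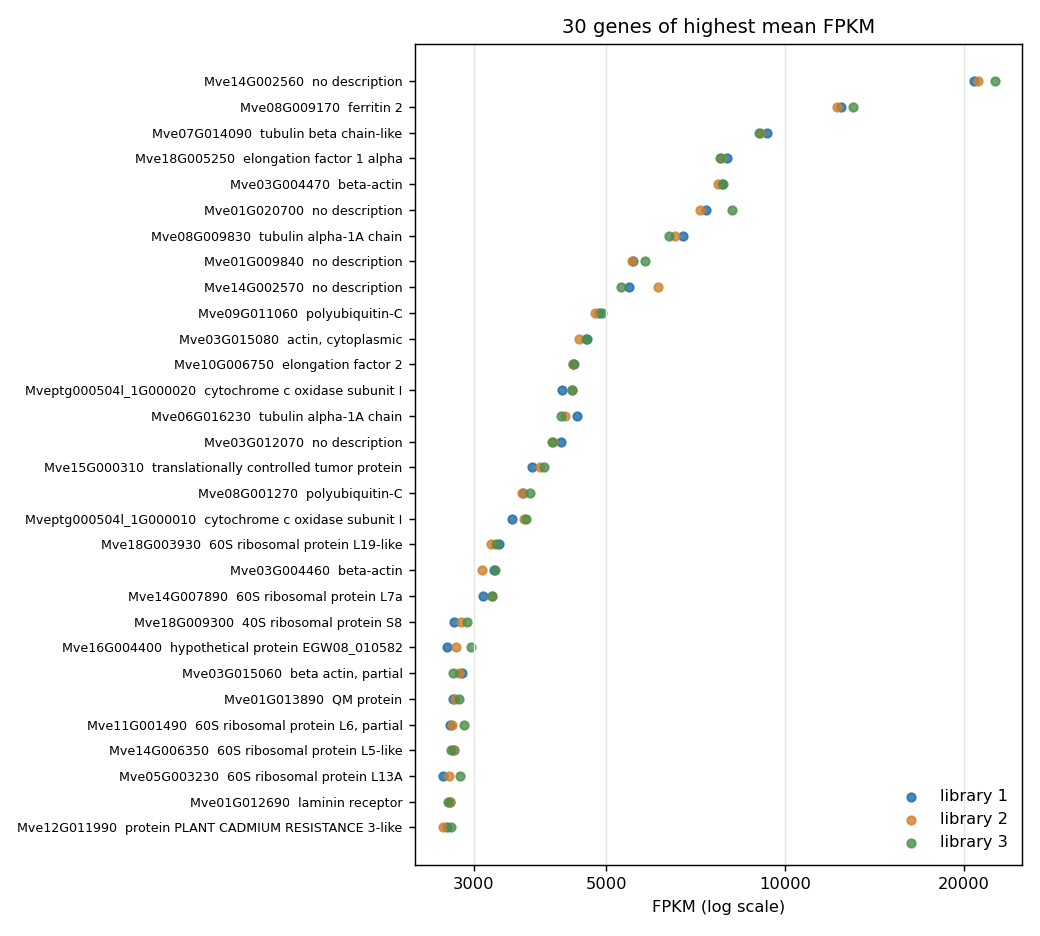
FPKM of the 30 most abundant genes, 1 row per gene ordered by mean, with 1 point per normoxic library on a log axis. Mve14G002560 and ferritin 2 stand apart from the rest, and 15 of the 29 neighbouring pairs overlap in their 3 values.

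The second gene was ferritin 2 (Mve08G009170, chromosome 8, 28304207 to 28309507), the protein shell that stores iron inside cells. It had 12427, 12228 and 13017 FPKM. The other 3 genes described as ferritins were nearly or entirely silent: ferritin (Mve05G010970) averaged 0.275 ± 0.240 FPKM, ferritin 4 (Mve13G002240) 0.192 ± 0.332 FPKM, and ferritin 3 (Mve13G002250) had no count. Thus 1 of 4 ferritin genes supplied essentially all ferritin messenger RNA in this tissue, and it made up 97.6% of the whole list of iron and metal handling genes, 12 of 25 of which were detected. The next members were a zinc transporter of the ZIP family, ZIP10 (Mve07G000280), at 156 ± 2.79 FPKM, and a melanotransferrin-like iron binder (Mve13G013180) at 55.1 ± 0.847 FPKM.

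The cytoskeleton came next. Tubulin beta (Mve07G014090) had 9337, 9075 and 9036 FPKM, beta-actin (Mve03G004470) had 7822, 7706 and 7866 FPKM, and tubulin alpha-1A (Mve08G009830) had 6726, 6532 and 6375 FPKM. Tubulin beta stood above beta-actin, and beta-actin above tubulin alpha-1A, in all 3 libraries and without overlap. Alpha- and beta-tubulin, which pair to form microtubules, were present in nearly equal amounts: 11 alpha genes summed to 13138 ± 394 FPKM and 12 beta genes to 13920 ± 248 FPKM, an alpha to beta ratio of 0.944 ± 0.0127. In both families 1 or 2 genes made up at least 50% of the sum, and copies with the same description may share reads.

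The 15 actin genes held 3.36 ± 0.0518% of summed FPKM, of which 4 genes supplied 92.5%. A pair of beta-actins lies next to each other on chromosome 3 (Mve03G004460, at 3199 ± 87.3 FPKM, and Mve03G004470). A second actin group on the same chromosome, Mve03G015060 to Mve03G015080, spans 50598515 to 50642230 and summed to 7894 ± 104 FPKM. The gene described as adductor-muscle actin (Mve14G001640) was lower, with 991, 953 and 942 FPKM. Taken as 1 list of 57 genes, actins, tubulins and their partners held 7.77 ± 0.178% of summed FPKM. The list was uneven, with a median of 22.6 FPKM and 4 genes supplying 61.0% of its sum.

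By FPKM, ribosomal proteins formed the largest of the 36 lists. All 70 genes described as cytosolic ribosomal proteins were detected, 68 of them above 100 FPKM, with a median of 1211 FPKM and a range of 35.9 to 3256 FPKM. They held 15.4 ± 0.360% of summed FPKM, against the 0.283% of the table's genes that they make up. By counts, which weigh length, the share was 7.66%, below the 8.08% of actin and tubulin. The 41 genes of the large subunit had a median of 1301 FPKM, and the 29 genes of the small subunit a median of 951 FPKM. The highest were 60S L19 (Mve18G003930), with 3298, 3202 and 3267 FPKM, 60S L7a (Mve14G007890), with 3110, 3210 and 3210 FPKM, and 40S S8 (Mve18G009300), with 2774, 2851 and 2920 FPKM. Unlike the ferritins or tubulins, this block was even: it took 19 of the 70 genes to reach 50% of the sum. A laminin receptor (Mve01G012690), whose relatives double as a protein of the small subunit, averaged 2726 ± 10.8 FPKM, and QM protein (Mve01G013890), a protein of the large subunit, averaged 2794 ± 30.5 FPKM. The lowest members, described as rps21 (Mve03G016660) and 40S S29 (Mve02G017980), code for very short proteins.

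Ribosomal protein genes were slightly higher in library 3. They held 15.8% of its summed FPKM, against 15.2% in each of the others, and 52 of the 70 genes had their highest value there. Over all detected genes 31.4% had their highest value in library 3. The ribosomes of the mitochondrion were far less represented: 47 genes described as their proteins were all detected, but with a median of 11.6 FPKM and a range of 2.15 to 36.4 FPKM, so that even the highest mitochondrial one lay at the level of the lowest cytosolic one.

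Among 56 translation factors 53 were detected, and 2 of them made up at least 50% of the list. Elongation factor 1 alpha (Mve18G005250), which brings aminoacyl-tRNA to the ribosome, had 7983, 7814 and 7786 FPKM. Elongation factor 2 (Mve10G006750), which moves the ribosome along the messenger, had 4398, 4398 and 4411 FPKM and was one of the steadiest genes of the table. Elongation factor 1-gamma (Mve02G018620) averaged 1716 ± 21.1 FPKM and the initiation factor helicase eIF4A-I (Mve15G008680) 1205 ± 25.4 FPKM. Most initiation factors were far lower, for example eIF3 subunit D (Mve01G004260), the gene nearest the list median, at 29.8 ± 1.38 FPKM. Translationally controlled tumor protein (Mve15G000310), a conserved protein of growing cells, had 3750, 3874 and 3934 FPKM.

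Protein turnover was carried by 42 genes, all detected. A pair of polyubiquitin-C genes dominated, Mve09G011060, with 4861, 4787 and 4928 FPKM, and Mve08G001270, with 3630, 3607 and 3720 FPKM. They encode tandem copies of ubiquitin, the tag that marks proteins for the proteasome. The proteasome itself was lower. Its 7 alpha genes averaged 63.7 ± 0.970 FPKM, its 6 beta genes averaged 85.1 ± 1.61 FPKM, and the 21 genes of the regulatory particle had a median of 34.7 FPKM. In the list of 38 lysosomal enzymes the leading gene was cathepsin L3 (Mve05G015750), a cysteine protease, with 1291, 1290 and 1274 FPKM. The wider KEGG pathway Lysosome, of 206 genes, was led by Mve01G007530 at 2125 FPKM. Cathepsin D (Mve16G003970) averaged 226 ± 5.24 FPKM and cathepsin B (Mve18G000590) 200 ± 1.67 FPKM, whereas the genes described as cathepsin L1 (Mve06G005210) and partial cathepsin L (Mve10G007240) had 0 counts.

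Oxidative phosphorylation, the respiratory chain and the ATP synthase it drives, held 2.92 ± 0.0361% of summed FPKM over 46 genes, 45 of them detected, with a median of 131 FPKM. By FPKM a pair of genes described as mitochondrial cytochrome c oxidase subunit I led it. Both lie on the same unplaced contig, and they had 4214, 4382 and 4389 FPKM (Mveptg000504l_1G000020) and 3477, 3643 and 3672 FPKM (Mveptg000504l_1G000010). Their implied lengths were 291 and 1005 bases. By counts their order reversed, with 1258 and 3614 CPM, and ATP synthase subunit beta lay between them at 1783 CPM. Whether they are separate genes was not tested. Poly(A) selection can capture mitochondrial transcripts incompletely, and its part in these levels was not tested. Among nuclear genes the proton-channel ring of ATP synthase, subunit 9 (Mve07G010530), averaged 2319 ± 86.3 FPKM and its catalytic subunit beta (Mve12G007810) 850 ± 17.6 FPKM.

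The complexes of the chain differed in their medians. The median was 94.3 FPKM over 19 subunits of complex I (NADH dehydrogenase), 84.9 FPKM over 4 described for complex II (succinate dehydrogenase), 152 FPKM over 5 for complex III (cytochrome bc1), 379 FPKM over 7 for complex IV (cytochrome c oxidase) and 252 FPKM over 10 for the ATP synthase. Within complex IV, subunit IV (Mve06G008630) averaged 401 ± 3.50 FPKM and subunit 5B (Mve03G010350) 379 ± 5.64 FPKM. One gene described for complex II was below the limit, at 0.0203 FPKM. The 7 genes of complex IV include the pair of cytochrome c oxidase subunit I genes. Its nuclear subunit 6B1-like (Mve01G014360) averaged 243 ± 4.94 FPKM. The order of the medians depends in part on the low complex II gene and on that pair.

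Carbon metabolism upstream of the chain was lower. Over 17 glycolysis genes the median was 23.2 FPKM, led by glyceraldehyde-3-phosphate dehydrogenase (Mve04G009740) with 480, 466 and 477 FPKM. Enolase (Mve04G001220) averaged 277 ± 5.48 FPKM and triosephosphate isomerase (Mve04G013470) 228 ± 5.50 FPKM. Pyruvate kinase (Mve17G005860), which closes the pathway, averaged 23.2 ± 2.07 FPKM. Over 21 genes of the citric acid cycle the median was 26.3 FPKM, led by cytoplasmic malate dehydrogenase (Mve02G015430), at 314 ± 10.9 FPKM, and citrate synthase (Mve12G006590), at 239 ± 5.60 FPKM.

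Of 12 genes listed under anaerobic metabolism, 10 were detected at normoxia. Not all of the enzymes in this paragraph are particular to it, and arginine kinase supplied 54.7% of the list. Arginine kinase (Mve05G010230), which buffers ATP with phosphoarginine as creatine kinase does in vertebrates, had 353, 353 and 349 FPKM. Of 4 genes for phosphoenolpyruvate carboxykinase, 3 are neighbours on chromosome 6. They averaged 84.3 ± 1.58 (Mve06G010340), 74.3 ± 3.01 (Mve06G010350) and 40.8 ± 0.916 FPKM (Mve06G010330), and the remaining gene on that chromosome (Mve06G009330) was at 0.156 ± 0.0312 FPKM. The alternative oxidase gene (Mve07G002200) had 33.2, 31.4 and 30.2 FPKM. Its product bypasses complexes III and IV and itself uses oxygen, so it is not an anaerobic enzyme. The opine dehydrogenases, which make octopine in place of lactate, were low: 4 genes summed to 14.0 ± 0.656 FPKM, and the highest (Mve03G010040) averaged 6.02 ± 0.136 FPKM.

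The leading genes of oxygen sensing were moderate. The hypoxia inducible factor 1-alpha gene (Mve02G016380, chromosome 2, 52182745 to 52235313) had 16.6, 17.1 and 17.7 FPKM, a second gene with that description (Mve02G015210) had 0 counts, and its partner ARNT (Mve10G004750) averaged 7.62 ± 0.813 FPKM. The gene for the prolyl hydroxylase EGLN1 (Mve02G014470), whose product marks the factor for removal while oxygen is present, averaged 13.1 ± 0.765 FPKM. Of the 17 genes in this list of sensors and oxygen carriers 10, or 58.8%, were detected, with a median of 2.36 FPKM. Both values were near those over all genes, 55.5% and 1.91 FPKM. The globins ranged widely. Androglobin (Mve05G012580), a large globin known from ciliated cells, averaged 44.8 ± 1.05 FPKM and was the highest gene of the list, ahead of hypoxia inducible factor 1-alpha. Globin-5 (Mve02G015950) averaged 11.0 ± 0.763 FPKM and nerve hemoglobin (Mve08G001640) 2.36 ± 0.251 FPKM, while hemoglobin III (Mve08G012020) had counts in library 2 alone.

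Exchange of ions and gases was served by a few genes at high level. The alpha subunit of the sodium/potassium ATPase (Mve07G001180, chromosome 7, 2858022 to 2877151), the pump that sets the sodium gradient, had 578, 579 and 576 FPKM, and its beta-3 subunit (Mve15G004490) averaged 171 ± 4.53 FPKM. All 11 subunits of the V-type proton ATPase were detected, from 5.95 to 199 FPKM with a median of 39.4 FPKM. Among 14 carbonic anhydrases 8, or 57.1%, were detected, near the 55.5% of all genes. They were led by carbonic anhydrase II (Mve06G005770), with 101, 97.1 and 94.9 FPKM, and carbonic anhydrase 13 (Mve13G003190), with 61.8, 60.9 and 59.9 FPKM. These convert carbon dioxide to bicarbonate.

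Solute carriers showed the opposite shape: many genes, most of them low. Of 301 solute carriers and aquaporins 125, or 41.5%, were detected, 66 were at 0, and the median was 0.812 FPKM. A single gene exceeded 100 FPKM, a sodium- and chloride-dependent transporter of neutral and basic amino acids (Mve10G009320), with 239, 243 and 237 FPKM. Sodium-coupled monocarboxylate transporter 1 (Mve17G009100) averaged 80.8 ± 4.04 FPKM and a family 23 carrier (Mve13G002450), a family that includes the vitamin C transporters of mammals, 78.7 ± 5.13 FPKM. A cluster of family 22 carriers on chromosome 1 (Mve01G000740, Mve01G000750, Mve01G000760 and Mve01G000780) had 0 counts in every library.

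**Figure D3:**
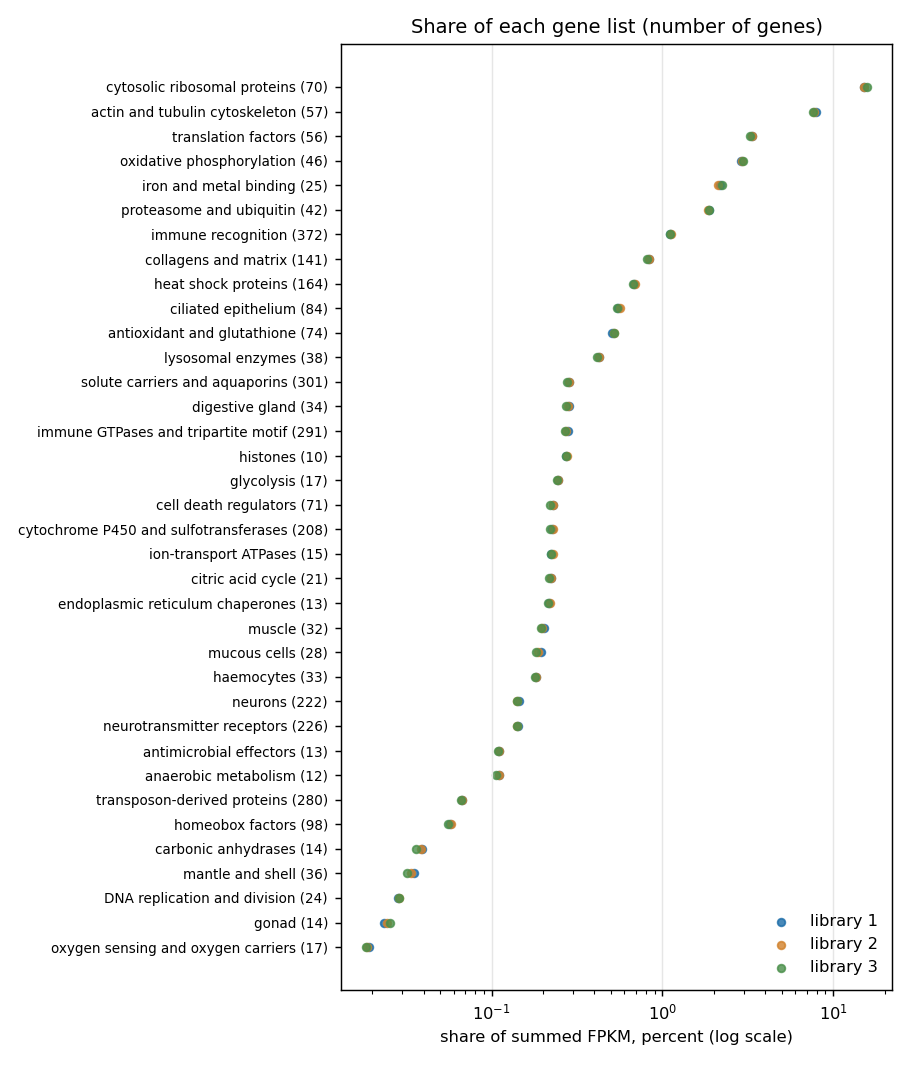
Share of summed FPKM held by each of 36 gene lists, in percent on a log axis, with the number of genes in brackets and 1 point per normoxic library. Ribosomal proteins and the cytoskeleton lead, and the 3 points of most lists cover each other.

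The label of the tissue was checked against markers of gill and of other tissues. In bulk tissue, fewer cells of a type and less RNA per cell cannot be told apart, and this holds for each marker below. Of 84 markers of ciliated epithelium, the defining cell of the gill, 79 were detected and 1 was at 0, with a median of 19.7 FPKM. The 5 tektins, which stiffen the ciliary microtubules, ran from 83.3 to 177 FPKM. Radial spoke head 9 (Mve02G007880) had 223, 223 and 217 FPKM, and radial spoke head 4A (Mve02G011310) had 205, 209 and 204 FPKM. Of 14 axonemal dynein heavy chains, the motors of ciliary beating, 13 were detected, led by dynein heavy chain 5 (Mve05G008550) at 80.4 ± 0.571 FPKM. All 16 intraflagellar transport genes, which build cilia, were detected, with a median of 19.6 FPKM. The summed level of the ciliary list ranged from 0.544% to 0.561% of all FPKM over the 3 libraries.

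Muscle markers were detected in 24 of 32 cases, with a median of 10.3 FPKM and a list sum of 0.194% to 0.202%. A smooth muscle myosin regulatory light chain (Mve13G011250) led them at 226 FPKM, and paramyosin (Mve09G008510), a thick-filament protein of invertebrate muscle, averaged 138 ± 3.69 FPKM. Haemocyte markers were detected in 26 of 33 cases with a median of 8.66 FPKM and a sum of 0.181% to 0.183%. The gene described as integrin beta-like protein A (Mve02G003930) led them at 319 ± 3.19 FPKM. Its KEGG annotation includes the Notch signaling pathway, so its place as a haemocyte marker is uncertain. A haemocyte transglutaminase (Mve06G014840), an enzyme that crosslinks proteins in clotting, followed at 245 FPKM, and allograft inflammatory factor (Mve05G011480) at 141 ± 4.74 FPKM. Of these 33 genes 8 are also in the list of antimicrobial effectors. Of 28 mucus markers 13 were detected, with a median of 0.660 FPKM, and mucin-16-like (Mve12G008090) alone supplied 88.9% of the list, with 1012, 985 and 970 FPKM.

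Markers of mantle and of digestive gland had low medians, as the mucus list did, beside a median of 1.91 FPKM over all 24722 genes. Of 36 genes of mantle and shell formation 6 were detected and 10 were at 0, with a median of 0.107 FPKM, the lowest of all 36 lists. A perlucin-like gene (Mve03G005040) supplied 71.5% of that list with 142 ± 6.78 FPKM, and all genes described as tyrosinase stayed below 1 FPKM. Of 34 digestive gland markers 16 were detected, with a median of 0.615 FPKM, but 10 of these 34 genes are also in the lysosomal list, including cathepsin L3, and an alpha-amylase gene (Mve02G006570) had 0 counts. A pancreatic triacylglycerol lipase-like gene (Mve18G004440) was an exception at 137 ± 5.30 FPKM. Of 14 gonad markers 7, or 50%, were detected, with a median of 1.75 FPKM. Both values were near those over all genes, of which 55.5% were detected. Vitellogenin-6 (Mve03G014000), a yolk protein, was at 0, whereas a doublesex and mab-3 related factor (Mve03G013690) averaged 83.1 ± 5.27 FPKM and the germ-line helicase DDX4 (Mve03G002490) 26.2 ± 1.04 FPKM. The part of gonad tissue in these values was not tested.

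Most nerve genes stayed below the limit: 72 of 222 markers of neurons were detected, with a median of 0.406 FPKM. The neuropeptide precursor myomodulin 2 (Mve16G003990) was the one gene of the list over 100 FPKM, with 165, 163 and 166 FPKM. The 226 neurotransmitter receptors, of which 142 are shared with that list, had 72 detected members, a median of 0.379 FPKM and 33 members at 0. They were led by a metabotropic glutamate receptor (Mve11G013560) at 94.4 ± 0.303 FPKM. The 134 subunits of nicotinic acetylcholine receptors, a family much expanded in bivalves, summed to 415 FPKM in the mean, with 41 detected and a highest member of 32.9 FPKM.

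**Figure D4:**
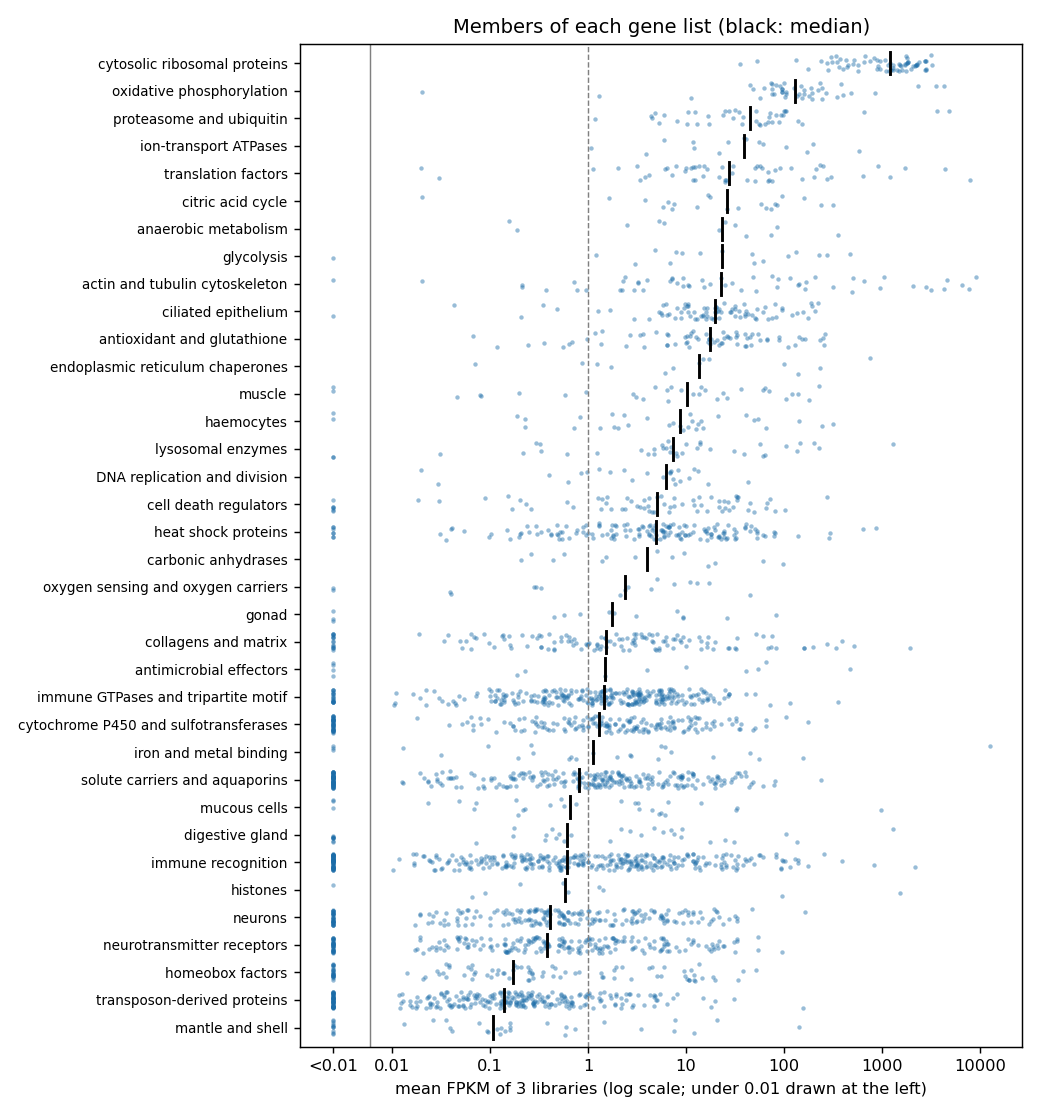
Mean FPKM over the 3 normoxic libraries of every member of the 36 lists on a log axis, 1 point per gene, with black bars at list medians, a dashed line at 1 FPKM and genes under 0.01 FPKM drawn left of the solid line. Ribosomal genes lie far to the right of the dashed line, as do respiratory genes except 1 below it. Immune recognition and transporter lists spread from 0 to above 100 FPKM, and neurotransmitter receptors from 0 to 94.4 FPKM.

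Immune recognition was a broad family with few abundant members. Of 372 genes 156, or 41.9%, were detected, 58 were at 0, the median was 0.610 FPKM, and 3 genes made up at least 50% of the sum. All 3 were tandem repeat galectins, lectins that bind galactose sugars on microbes and cells, located between 56477046 and 57271398 on chromosome 2. Mve02G017790 had 2151, 2189 and 2196 FPKM, Mve02G017890 had 797, 818 and 876 FPKM, and Mve02G018090 had 397, 388 and 386 FPKM. Their ranges did not overlap. A further gene of that description, Mve02G018110, had counts in library 3 alone. Genes that share a description may share reads, so the split between them is uncertain.

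Other recognition families were led by a few genes as well. Of 102 C1q domain proteins 33 were detected and 26 were at 0. The leading C1q gene (Mve06G002060) averaged 176 ± 1.88 FPKM, and C1q genes with no count included Mve01G014620, Mve01G014630 and Mve01G014650 on chromosome 1. Of 66 macrophage mannose receptors and C-type lectins 12 were detected and 28, or 42.4%, were at 0. A C-type mannose receptor 2-like gene (Mve13G003410) supplied 64.8% of that family, at a mean of 265 FPKM. Toll-like receptors, which sense microbial products at the membrane, were rarely at 0 but mostly low, with a median of 0.809 FPKM. Of 86 genes 41, or 47.7%, were detected and 3, or 3.49%, were at 0. Over all genes 55.5% were detected and 9.91% were at 0. The highest toll-like receptor, described as toll-like receptor 4 (Mve09G013350), averaged 114 ± 4.92 FPKM.

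Effector genes followed. Of 6 peptidoglycan recognition proteins, which bind bacterial cell walls, 5 were detected, with the first (Mve13G006530) at 247, 255 and 261 FPKM. The pore-forming macrophage-expressed gene 1 protein (Mve16G014180) had 486, 471 and 465 FPKM, and a second gene of that description (Mve08G001530) had none. Of 8 lysozymes 4 were detected, the highest (Mve01G000860) at 66.2 ± 8.69 FPKM, and defensin (Mve13G005030) was at 0. A dual oxidase 2-like gene (Mve10G007400), whose relatives release hydrogen peroxide at epithelial surfaces, had 947, 950 and 950 FPKM. It supplied 98.8% of the FPKM of 5 genes described as dual or NADPH oxidases, while the gene for NADPH oxidase 4 (Mve05G008440) was at 0.

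Stress proteins were widely present at normoxia. Of 164 heat shock genes 117 were detected, with a median of 4.90 FPKM. A neighbouring pair of heat shock protein 70 genes on chromosome 7 had 855, 885 and 856 FPKM (Mve07G002840) and 642, 654 and 636 FPKM (Mve07G002850), and 2 genes for heat shock protein 90 averaged 295 ± 4.88 (Mve02G001700) and 291 ± 3.22 FPKM (Mve01G001290), whose ranges overlapped. The large 12A and 12B group of the 70 kDa family had 98 genes, 71 of them detected, which summed to 1501 ± 4.76 FPKM, about the level of the 14 other members, at 1562 ± 25.1 FPKM. The 12 small heat shock genes were low and summed to 20.0 ± 1.06 FPKM. Calreticulin (Mve03G001600), a chaperone of the endoplasmic reticulum, averaged 750 ± 7.26 FPKM and the chaperone GRP78 (Mve14G007880) 231 ± 6.72 FPKM.

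Antioxidant genes were widely present: 63 of 74 were detected, none was at 0, and the median was 17.8 FPKM. Thioredoxin (Mve19G005780) averaged 263 ± 4.09 FPKM, extracellular copper-zinc superoxide dismutase (Mve10G006350) 253 ± 10.6 FPKM and glutathione S-transferase A (Mve02G015270) 250 ± 4.62 FPKM. The range of superoxide dismutase overlapped both others, while thioredoxin and glutathione S-transferase A did not overlap. Catalase (Mve05G008150), which breaks down hydrogen peroxide, averaged 54.6 ± 2.26 FPKM.

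Inhibitors of apoptosis, proteins that restrain caspases, had a higher summed level than the caspases but also more genes, and their median, 4.50 FPKM, was slightly below that of the caspases. The 43 inhibitor genes summed to 1000.3 ± 10.7 FPKM, led by inhibitor of apoptosis 1 (Mve05G007000) with 269, 276 and 270 FPKM. The 24 caspase genes summed to 209 ± 2.98 FPKM, and the highest of them (Mve13G011850) reached 33.1 ± 3.96 FPKM. Of the 9 genes described as caspase-2, 6 had 0 counts, although Mve13G011850 is itself one of the 9.

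Among matrix genes, a collagen alpha-2(I) chain-like gene (Mve01G005090) had 1962, 1954 and 1903 FPKM and supplied 61.8% of the FPKM of 59 collagens. Of these 59 genes 30, or 50.8%, were detected, near the 55.5% of all genes. Most replication histone messages lack a poly(A) tail, as background to these oligo(dT) libraries. Of 10 described histone genes 3 were detected, and the replacement histone H3.3 (Mve01G005390), whose message carries a tail, averaged 1524 ± 18.3 FPKM. Genes of DNA replication and division were low to moderate, with 17 of 24 detected and proliferating cell nuclear antigen (Mve01G002720), the clamp of DNA polymerase, at 43.2 ± 2.47 FPKM.

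Developmental regulators and mobile elements were low. Of 98 homeobox factors 27 were detected and 23 were at 0, with a median of 0.173 FPKM. A few stood out: a partial Lhx1-like gene (Mve11G007730) had 51.3, 52.5 and 50.3 FPKM, Nkx-2.1 (Mve02G014120) had 37.6, 38.4 and 38.0 FPKM, and a SIX3-like gene (Mve02G015400) had 35.2, 35.8 and 31.7 FPKM. Of 280 genes derived from transposons 37 were detected, with a median of 0.140 FPKM. One of them, Tcb1 (Mve08G007810), supplied 39.8% of the sum with 159, 158 and 157 FPKM.

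Of 46 cytochromes P450, enzymes that oxidise foreign and endogenous compounds, 60.9% were detected, near the 55.5% of all genes. The highest was a 3A4-like gene (Mve17G009280) at 175 ± 3.64 FPKM. Of 161 sulfotransferases 75, or 46.6%, were detected and 34 were at 0. The tripartite motif proteins, an unrelated family of ubiquitin ligases with many copies in molluscs, numbered 248, of which 124, or 50%, were detected. A single gene, Mve11G008840, supplied 30.4% of their sum with 369, 356 and 349 FPKM.

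Genes were also grouped by KEGG pathway and gene ontology term instead of by description. Among 124 KEGG pathways of at least 20 genes, Ribosome had the highest median, 386 FPKM over 130 genes, followed by Oxidative phosphorylation at 94.7 FPKM over 88 genes and Proteasome at 39.5 FPKM over 55 genes. Ribosome held 17.8 ± 0.461% of summed FPKM and Phagosome, which contains the tubulins and actins, 8.88 ± 0.201%. The pathways with the highest share of genes at 0 were keratan sulfate biosynthesis, with 9 of 37 genes or 24.3%, and Salivary secretion, with 7 of 29 or 24.1%. For comparison, 6.86% of all genes with a KEGG annotation were at 0.

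Among 731 gene ontology terms the highest medians belonged to the cytosolic small ribosomal subunit, at 948 FPKM, the cytosolic large ribosomal subunit, at 753 FPKM, cytoplasmic translation, at 661 FPKM, and mitochondrial complex I, at 95.5 FPKM. The small subunit stood above the large one here, whereas by description the large subunit had the higher median. Microtubule-based process, at 34.9 FPKM over 44 genes, was also among the 10 highest. At the other end, cell communication had 10 of 23 genes at 0 and sodium-independent organic anion transport 9 of 21. Over all 14703 genes with an ontology term, 6.71% were at 0.

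Families, defined as at least 20 genes that share a description, cover only genes with many copies under one name. Ribosomal proteins and respiratory subunits form no family by this rule, so the family medians do not describe them. None of the 35 families had a median of 10 FPKM or more, and 16 had a median below 1 FPKM. The highest medians were 6.96 FPKM for 22 genes described as C1q, 6.77 FPKM for 62 genes of heat shock 70 kDa protein 12A and 6.08 FPKM for 26 genes of interferon-induced protein 44. By summed FPKM the first family was a set of 52 genes named for sushi, von Willebrand factor, EGF and pentraxin domains, with 0.280 ± 0.00508% of the sum, 45.3% of which came from Mve08G004930. Perlucins had the largest share at 0, 8 of 21 genes or 38.1%, followed by complement C1q-like protein 4 and macrophage mannose receptor 1, each with 8 of 22.

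The 10 genes with an informative description nearest the median of 6.86 FPKM included a cytochrome P450 4F6 (Mve04G007760), with 7.00, 7.43 and 6.14 FPKM. Also among them were the replication licensing factor mcm6 (Mve07G000250), at 6.85 ± 0.987 FPKM, and mitochondrial D-lactate dehydrogenase (Mve06G007880), at 6.85 ± 0.516 FPKM.

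The 3 libraries agreed closely for genes of some abundance. Over the 5201 genes averaging 10 FPKM or more, the median SD was 5.01% of the mean, with quartiles of 2.78% and 8.01%, and 84.3% of genes stayed under 10%. The spread narrowed with abundance: the median was 13.0% for genes of 1 to 10 FPKM, 5.42% for 10 to 100 FPKM, 2.73% for 100 to 1000 FPKM and 2.31% at 1000 FPKM or more. Among the steadiest genes were stimulator of interferon protein 1 (Mve15G010390), with 44.5 FPKM in each library, and the dual oxidase 2-like gene (Mve10G007400). With 3 values an SD is itself imprecise, and some of 5201 genes will show a very small one.

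**Figure D5:**
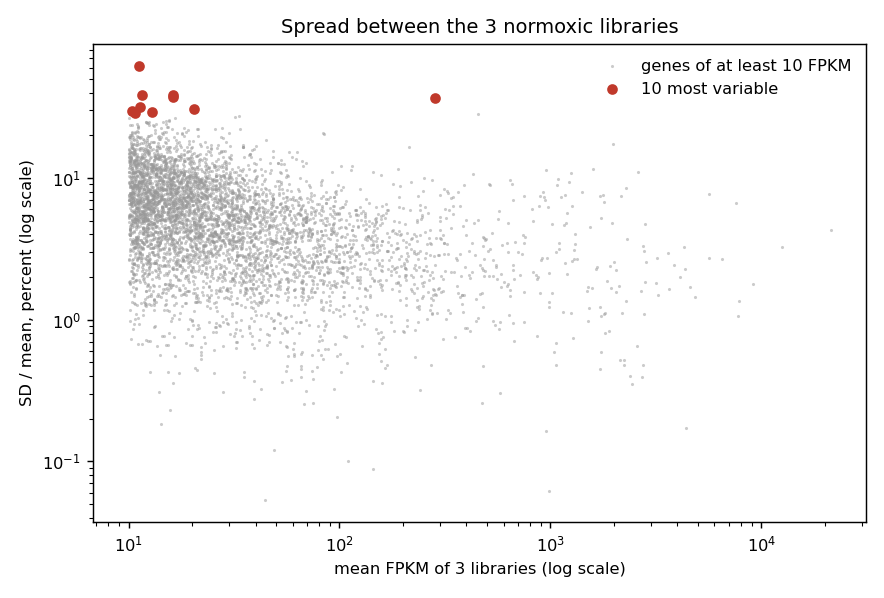
SD over the 3 normoxic libraries as a percent of the mean, against mean FPKM, for the 5201 genes of at least 10 FPKM, both axes on log scales, with the 10 most variable genes in red. Most of the red points lie just above 10 FPKM, and 60S ribosomal protein L34-like is the exception at 284 FPKM.

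Only 20 of these genes had an SD over 25% of the mean. The most variable was Mve09G008070, without a description, with 19.1, 9.07 and 5.64 FPKM and an SD of 62.0% of the mean. A serine proteinase inhibitor (Mve02G010030) had 14.9, 13.2 and 6.46 FPKM, and a C1q gene (Mve06G001750) had 21.2, 18.1 and 9.28 FPKM. A gene described as 60S ribosomal protein L34 (Mve01G016500) had 404, 224 and 225 FPKM, so that library 1 stood apart from the others. In the initiation factor gene eIF4A-II (Mve07G010310), at 16.2 ± 6.06 FPKM, library 3 was highest. Aquaporin-9 (Mve11G013930), a water and glycerol channel, had 13.8, 16.1 and 8.73 FPKM. The high library was not the same for all: among the 10 most variable genes library 1 was highest for 4, library 2 for 3 and library 3 for 3.

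By counts, which weigh a gene by its length as well as its level, long genes moved up. Of the 30 leading genes by counts, 20 were also among the 30 by FPKM. Elongation factor 1 alpha came first, followed by tubulin beta and elongation factor 2. The additions included a versican core protein-like gene (Mve01G006080), dual oxidase 2-like, mucin-16-like and the sodium/potassium ATPase alpha subunit, genes of the matrix, the epithelial surface and ion transport.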

How the data were processed

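Gill RNA was selected with oligo(dT) and sequenced as paired reads from libraries with a dUTP second strand, per the labels' protocols. Whether counting used strand, and the genome build, are not stated in these labels. The authors deposited raw counts per gene and FPKM for 9 libraries; both units are named per the file headers, and FPKM are scaled for length and mapped fragments. Cutadapt 1.9, HISAT2 2.2.1, StringTie 2.1.6, DESeq2 and edgeR are named per the submitters' processing notes, with no role for each.

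Only the 6 control columns were read. Totals were 26994566 to 32246147 counts. FPKM and counts were 0 in the same cells. Even low counts outnumbered odd ones (883 values of 2, 615 of 1), so a count is not 1 independent molecule, and the limits given for 0 counts cover counting error only. Implied length is counts divided by FPKM and library total. Detection required 1 FPKM in every library. Lists (28 of functions, 8 of markers) and 48 sub-groups were matched to the deposited descriptions. Members and lists were chosen with earlier results of these data known, and patterns were corrected for wrong or missed matches after descriptions and values were seen.

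Named genes were the 30 of highest mean FPKM, in each list the 4 highest, the nearest to the median and up to 4 at 0 by identifier, the 10 of largest SD over mean among those of at least 10 FPKM, the 10 nearest the detected median, and those around a threshold. The 10 leading families, terms and pathways of at least 20 genes were named by sum, median and share at 0. The other genes given, such as dual oxidase 2-like, sub-group leaders and flanking genes, were chosen after their values were seen. No test was run, since 1 group gives no contrast. Alternatives were thresholds, other scalings, counts in place of FPKM, and leaving out each library. The calculations used Python 3.11.15, numpy 2.4.6 and pandas 2.3.3 and were tested on simulated data.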

Additional observations from a re-analysis of the deposited data

How the results depend on the processing

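The number of detected genes stayed between 11513 and 17198 under the other thresholds, and between 13986 and 14027 with 1 library left out. Genes at 0 numbered 2992 to 3108 with a library left out and 3678 when all genes under 0.1 FPKM in every library counted as absent. Genes for 50% of the sum numbered 260 by counts, 201 without the 10 most abundant genes, and 127 to 130 with a library left out. When counts, which weigh length, replaced FPKM, shares moved to 7.66% for ribosomal proteins, 4.88% for translation factors, 1.48% for oxidative phosphorylation, 0.870% for iron and metal binding, 2.13% for proteasome and ubiquitin, 0.765% for immune recognition and 8.08% for actin and tubulin. Without the 10 most abundant genes, in the same order, they were 18.1%, 2.34%, 3.43%, 0.0617%, 1.23%, 1.31% and 4.48%. With a library left out, in the same order, they ranged over 15.2% to 15.5%, 3.30% to 3.33%, 2.90% to 2.94%, 2.146% to 2.196%, 1.86% to 1.88%, 1.11% to 1.11%, and 7.67% to 7.84%. The shares of all 29 other lists moved by more than 1 SD under both changes. Leaving out the 10 most abundant genes lowers the sum, which raises the share of any list without them. None of the 29 moved that far when a library was left out. That outcome was fixed in advance, because a mean of 2 of 3 values always lies within 1 SD of the mean of all 3. It therefore says nothing about stability. Of the 36 list medians, 0 moved by more than 1 SD under median-of-ratios scaling, and 6, 3 and 2 did without libraries 1, 2 and 3. All 36 moved when FPKM were rescaled to one common sum. That sum lies above those of the libraries, 588096 to 598535 FPKM, so the step is a change of unit that raises every median nearly alike. When only members of at least 1 FPKM were kept 32 moved, and leaving out low members cannot lower a median.

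Of the 10 families of highest median, 4 stayed with a minimum of 10 genes, 3 with 50 genes and 6 when only genes of at least 1 FPKM were counted. Of the 10 ontology terms, 4 stayed with 10 genes and 2 with 50. Of the 10 KEGG pathways, 6, 5 and 6 stayed under the same 3 changes. With a library left out, 9 families, 10 terms and 9 to 10 pathways stayed, and 29 to 30 of the 30 most abundant genes. The list of most variable genes was the least stable: 3 of 10 stayed at a minimum of 5 FPKM, 2 at 20 FPKM, 5 without library 1, 4 without library 2 and 4 without library 3. The cause was not tested. No paired analysis was possible because only 1 group is described and no groups are compared. Depth limits the genes under 1 FPKM most. For the 2449 genes at 0, absence says only that they lie below the limit given for 0 counts.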

Other observations

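Abundance was unevenly spread over chromosomes. Chromosome 1 held 12.4% of summed FPKM with 7.73% of the genes, and chromosome 14, which carries the run of 5 undescribed genes, held 9.24% with 5.10%. Chromosome 17 had the lowest share of detected genes, 44.8% of 900, and chromosome 6 the highest, 61.3% of 1469. Both shares are descriptions of the deposited annotation.

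Outside the chromosome 14 run and the actin group, 4 runs of 3 neighbouring genes reached 100 FPKM throughout. The strongest, Mve16G008800 to Mve16G008820, comprised 3 uncharacterized proteins, 2 of which share a description, and summed to 1627 ± 10.6 FPKM. In Mve09G014320 to Mve09G014340, at 1448 ± 9.62 FPKM, the first gene has no description and was among the steadiest of the table, with 986, 985 and 985 FPKM. A second undescribed gene near Mve01G020700 on chromosome 1, Mve01G020730, had 1917, 1890 and 2064 FPKM, and library 3 was the highest for both.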
